A study of Homo sapiens with 6 samples.

Results

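The control neural cells described here are neural cells differentiated from the human embryonic stem cell line H9 and measured on 3 bead arrays. They were described through the genes that the authors' detection p-value placed above background, at a value below 0.05, on control 1, control 2 and control 3 alike. This held for 11866 of 34692 rows, where a row is 1 gene name of the array's design. They are 3 of the series' 6 arrays, and the isthmic organizer arrays were not compared with them. Per the labels' protocols, floating embryoid bodies were grown with N2 and 2% B27 supplement without vitamin A, were given 5 µM dorsomorphin and 10 µM SB431542 for the first 4 days, and were plated on Matrigel on day 4 for 5 more days. Dorsomorphin blocks BMP receptors and SB431542 blocks activin, nodal and TGF-beta receptors. For the cells meant to become organizer-like, the protocol adds FGF8 and CHIR99021, a GSK3 inhibitor, and the labels do not state whether the control cells received either. All samples share the line and the inhibitors, and nothing in the labels says whether the 3 control samples came from separate cultures, so their spread may be partly technical.

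Blocking both branches of TGF-beta family signalling turns pluripotent cells into neural plate cells, and in the absence of posteriorising signals such cells are known to take an anterior, forebrain-like identity. The anterior neural plate gives rise to the telencephalon, the eye field and the hypothalamus, and each of these domains is marked by its own set of transcription factors. Wnt, FGF and retinoic acid signals shift the plate toward midbrain, hindbrain and spinal cord, where HOX genes are switched on.

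Control 1 stood apart from the other arrays of its group. Over the 11866 detected rows, Pearson's r of log2 levels was 0.943 between control 1 and control 2, 0.949 between control 1 and control 3, and 0.99 between control 2 and control 3. The median absolute log2 difference was 0.448, 0.475 and 0.155 for the same pairs. Median intensities were close, at 144, 152 and 146, and 14291, 14186 and 13999 rows were detected. Of the 371 detected rows whose log2 levels spanned at least 2, control 1 was the highest array in 352. Counts of detected members over control 2 and control 3 alone, on which 12678 rows were detected, are therefore also given for each list where they differ. The part of RNA quality or culture in this difference was not tested.

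An intensity depends on the probe as well as on the transcript, so the percentile of a row among all rows of its array describes brightness and does not rank transcripts by amount. Of all rows, 34.2% were detected on all 3 arrays, and of the 15979 rows that match a current protein-coding symbol, 47.4%. At the edge of the rule, CD97 had intensities of 166, 190 and 178 and a highest detection p-value of 0.0499, and KIAA1641 had 147, 148 and 153 and a highest value of 0.05005. A row that was not detected is not shown to be silent. Detection p-values of rows that combine several probes followed another scale, and 1274 such rows missed the rule while being, on each control array, at least as bright as the dimmest 1-probe row called detected.

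The 6 genes taken as markers of these cells, RAX, SIX3, LHX2, PAX6, SOX2 and FEZF2, were detected on all 3 arrays. RAX, a homeobox factor needed for eye formation, had intensities of 3242, 5435 and 6672 on controls 1, 2 and 3, a log2 level of 12.26 ± 0.41 (SD, n = 3). It was lowest on control 1 and lay above the 94.5th percentile of each array. SIX3, a repressor of Wnt signals in the anterior plate, had 1641, 2685 and 2606 (11.10 ± 0.29). LHX2, which patterns the eye field and cortex, had 6448, 9046 and 10221 (13.07 ± 0.21), and FEZF2, a forebrain zinc finger factor, had 1663, 3490 and 3109 (11.32 ± 0.46). All 4 of these genes were lowest on control 1. PAX6, a paired-box factor of human neural plate and eye, went the other way with 2616, 1830 and 1278 (10.80 ± 0.66), highest on control 1, in a row that combines several probes. SOX2, a stem and neural progenitor factor, had 11213, 14226 and 10934 (13.57 ± 0.17) and a range of 0.34 on the log2 scale, below the median range of 0.571 over all detected rows.

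Of 17 genes of the eye field and anterior neural plate, 12 were detected on all 3 arrays, 1 on 2 arrays and 4 on none. The share on all 3 was 70.6%, against 34.2% of all rows and 47.4% of protein-coding rows. On controls 2 and 3 alone 13 were detected. The median percentile over all 17 was 72.3, against 48.1 over all rows. SIX6, a partner of SIX3 in the eye field, had intensities of 422, 669 and 688 (8.91 ± 0.47, SD, n = 3), and FEZF1, the paralog of FEZF2, had 283, 504 and 525 (8.31 ± 0.69). HESX1, a repressor of the most anterior plate, had 183, 253 and 313 (7.12 ± 0.74). These 3 genes were lowest on control 1, like RAX, SIX3, LHX2 and FEZF2, and in this list 7 of 12 detected members were lowest there, against 56.0% of all detected rows. OTX2, a head gap gene of forebrain and midbrain, had 1055, 609 and 493 (9.23 ± 0.73) and was highest on control 1 with PAX6. NR2E1, VAX2 and TBX3 were also detected, with intensities of 224 to 301, 210 to 290 and 147 to 168. TBX3 was near background on every array. MITF, a pigment epithelium factor, and VAX1, of the optic stalk, were detected on no array. RAX2, a paralog of RAX, was detected on 2 arrays at 128, 231 and 163.

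**Figure D1:**
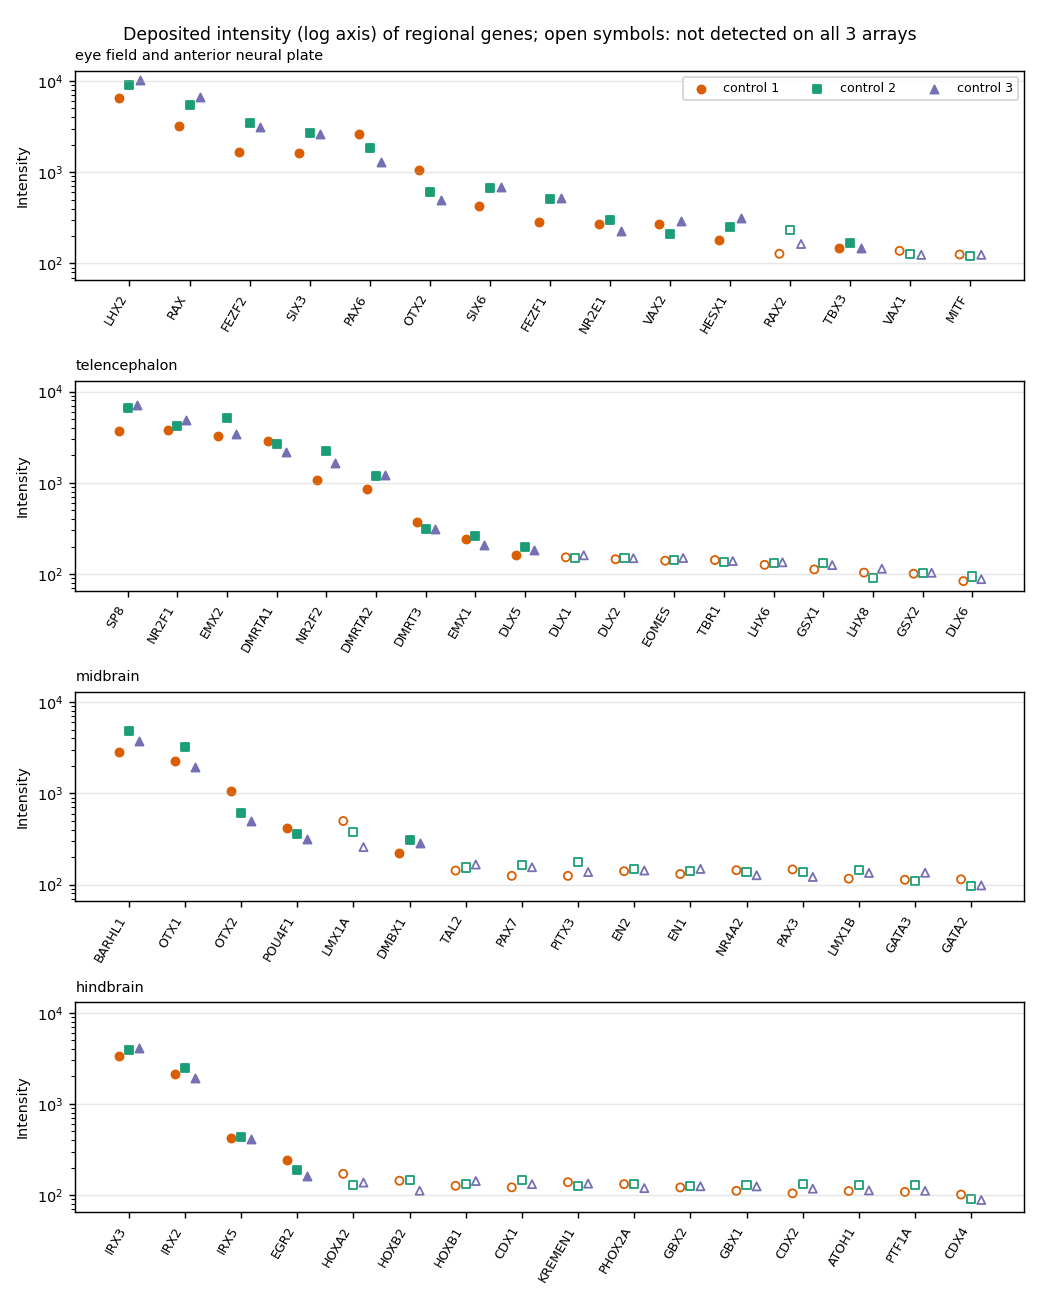
Deposited intensity on a log axis for members of 4 regional lists, ordered by mean log2 level, with a symbol for each control array. Filled symbols mark genes detected on all 3 arrays. Genes at the left of the eye field and telencephalon panels reach 10221, while most hindbrain genes have open symbols.

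Genes used as telencephalic markers were in part detected, 11 of 20 on all 3 arrays (55.0%, against 47.4% of protein-coding rows) and 9 on none. EMX2, a cortical homeobox factor, had intensities of 3258, 5099 and 3435 (11.90 ± 0.27, SD, n = 3), and its paralog EMX1 had 241, 260 and 207 (7.05 ± 0.29). SP8, a zinc finger factor that sustains FGF8 at the anterior ridge, had 3677, 6637 and 7096 (12.45 ± 0.38). The DMRT genes of the medial cortex were all detected: DMRTA1 at 2885, 2687 and 2186, DMRTA2 at 861, 1180 and 1202, and DMRT3 at 374, 313 and 309. NR2F1 and NR2F2, nuclear receptors of the caudal cortex, had log2 levels of 12.05 ± 0.15 and 10.55 ± 0.46. DLX5 was just above background at 161 to 199. DLX1, DLX2, DLX6, GSX1, GSX2, LHX6 and LHX8, of the ventral telencephalon, were detected on no array. Neither were EOMES and TBR1, which mark cortical intermediate progenitors and early cortical neurons.

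Of 19 genes of diencephalon and hypothalamus with a row, 8 were detected on all 3 arrays (42.1%), a share near the background of 34.2% of all rows and 47.4% of protein-coding rows. POU3F1 and POU3F2, POU factors of early neural cells, had intensities of 1008, 1839 and 1962 (10.51 ± 0.46, SD, n = 3) and of 1099, 1082 and 628 (9.69 ± 0.55). IRX1 had 461, 654 and 623, TCF7L2, a Wnt effector of the thalamus, 416, 635 and 538, and LHX5, an inducer of Wnt inhibitors, 281, 412 and 371. FOXD2, FOXD1 and BARHL2 lay lower, with intensities of 188 to 305, 187 to 225 and 159 to 194. OTP was detected on 1 array. NKX2-1, the defining factor of the ventral hypothalamus, was detected on no array, as were SIM1, LHX9, LHX1, POU3F3, POU3F4, TBX2, FOXB1 and SOX14.

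Of 16 midbrain genes, 5 were detected on all 3 arrays, 3 on 1 and 8 on none. The 5 made 31.2%, near the 34.2% of all rows and below the 47.4% of protein-coding rows. These 5 included OTX1 at 2264, 3202 and 1970 (11.21 ± 0.32, SD, n = 3) and OTX2, both of which the forebrain shares. BARHL1, a homeobox gene of dorsal diencephalon, midbrain and cerebellum, had 2867, 4877 and 3731 (11.86 ± 0.24). POU4F1, a sensory and midbrain neuron factor, had 417, 360 and 318 (8.07 ± 0.26), and DMBX1 had 220, 305 and 284 (7.37 ± 0.42). LMX1A, a roof plate and dopaminergic factor, was detected on 1 array by its p-value, although its row of several probes had intensities of 497, 374 and 258. PITX3 and TAL2 were detected on 1 array. EN1, EN2, LMX1B, PAX3, PAX7, GATA2, GATA3 and NR4A2 were detected on no array.

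Some signals of the isthmic organizer were detected in the control cells, while most of its transcription factors missed the rule. FGF8, a ligand made at the isthmus and also at the anterior ridge of the forebrain, had intensities of 408, 712 and 685 (8.92 ± 0.54, SD, n = 3) and was lowest on control 1. WNT1, a ligand of the midbrain and dorsal midline, had 941, 757 and 526 (9.33 ± 0.55) and was highest on control 1. FGF17 was close to background at 164, 175 and 177 (6.07 ± 0.10). With SP8 these made 4 of 13 members (30.8%), near the 34.2% of all rows and below the 47.4% of protein-coding rows. At a detection p-value below 0.01 only 2 remained, FGF8 and WNT1. SP8, bright but in a row of several probes, had detection p-values of 0.028, 0.035 and 0.029. PAX2, PAX5, PAX8, EN1, EN2, GBX2, LMX1B, FGF18 and CNPY1 were detected on no array.

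Of 19 hindbrain genes, 5 were detected on all 3 arrays, 2 on 1 and 12 on none. The 5 made 26.3%, near the 34.2% of all rows and below the 47.4% of protein-coding rows. The Iroquois genes IRX3, IRX2 and IRX5, which lie in several regions of the neural plate, were 3 of these 5. IRX3 had intensities of 3342, 3913 and 4093 (11.87 ± 0.07, SD, n = 3), IRX2 had 2116, 2486 and 1949 (11.05 ± 0.18) and IRX5 had 424, 434 and 417 (8.37 ± 0.01). The levels of IRX3 and IRX5 spanned 0.13 and 0.01 on the log2 scale, so control 1 did not stand apart for them. EGR2, a factor of single rhombomeres, had 245, 187 and 162, highest on control 1. HOXA2 was detected on 1 array. GBX1, GBX2, KREMEN1, PHOX2A, ATOH1, PTF1A, HOXB1, HOXB2, CDX1, CDX2 and CDX4 were detected on none.

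HOX genes give hindbrain and trunk cells their position along the body axis. Of the 39 HOX genes, 2 were detected on all 3 arrays, 6 on 1 or 2 and 31 on none. The share on all 3 was 5.13%, against 34.2% of all rows and 47.4% of protein-coding rows. On controls 2 and 3 alone 3 were detected. The median percentile of the 39 was 23.2. HOXD3 had intensities of 172, 181 and 211 and HOXC13 161, 196 and 164, both near the lowest signals of detected 1-probe rows, which were 155, 165 and 160. At a detection p-value below 0.01, or with the p-values adjusted by the Benjamini-Hochberg method, no HOX gene was detected. HOXA6, HOXB5 and HOXB6 were detected on 2 arrays, and HOXA2, HOXC6 and HOXD11 on 1.

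Along the dorsoventral axis, 7 of 16 genes of the dorsal neural tube and roof plate were detected on all 3 arrays (43.8%), and 4 of 14 of the ventral tube and floor plate (28.6%). Both shares lay near the background of 34.2% of all rows and 47.4% of protein-coding rows. ZIC2, a zinc finger factor of the dorsal neural plate, had intensities of 15565, 23911 and 21182 (14.32 ± 0.22, SD, n = 3). MSX1, a dorsal midline homeobox gene and BMP target, had 3967, 1997 and 1297 (11.06 ± 0.97). RSPO3 and RSPO2, secreted amplifiers of Wnt signals, had 578, 226 and 180 (7.38 ± 1.44) and 547, 369 and 255 (8.09 ± 0.80). OLIG3, a dorsal progenitor factor, had 404, 167 and 173 (6.75 ± 1.33). These 4 genes were highest on control 1, by 1.21 to 2.43 on the log2 scale over the mean of controls 2 and 3, and RSPO1 varied little at 361, 371 and 328. MSX2 and ZIC5 were detected on 2 arrays, LMX1A on 1, and PAX3, PAX7, GDF7, ZIC1, ZIC4 and ATOH1 on none. On the ventral side SPON1 had 3813, 6713 and 4296, while FOXA1 and OLIG2 had 258 to 391 and 220 to 343. DBX2 was detected on 1 array. SHH, FOXA2, NKX2-2, NKX6-1, NKX6-2, NKX2-8, OLIG1, FERD3L and DBX1 were detected on none.

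Neural progenitor genes had one of the highest shares of detected members of the 33 lists. Of 25 members, 21 were detected on all 3 arrays, and 22 on controls 2 and 3 alone. The share on all 3 was 84.0%, against 34.2% of all rows and 47.4% of protein-coding rows. The median percentile over all 25 was 90.5. The SOXB genes SOX3 and SOX21 had intensities of 12437, 17828 and 18866 (14.00 ± 0.25, SD, n = 3) and of 13715, 21967 and 25409 (14.32 ± 0.42). SOX1, the SOXB gene most specific to neural plate, was detected on no array, at 120, 157 and 156. NES, the intermediate filament of neural progenitors, had 11577, 20147 and 23312 (14.13 ± 0.47), and VIM had 19346, 21481 and 20113 (14.34 ± 0.04). LIN28A, an RNA-binding protein of early progenitors and pluripotent cells that is listed under its older symbol LIN28, had 29066, 35604 and 34153 (15.04 ± 0.12). Its paralog LIN28B had 3175, 1390 and 1054 (10.66 ± 1.01), and PROM1, an apical membrane protein, 1233, 420 and 493 (9.10 ± 1.07). Both were highest on control 1, with ranges of 1.89 and 2.00 against a 90th percentile of 1.44 over all detected rows. Of the 21 detected members 6 were highest on control 1 and 12 lowest. SOX11 was detected on 1 array by its p-value, with 1522, 2674 and 1348 in a row of several probes.

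Markers of radial glia, the later neural stem cell, were split, with 6 of 14 detected on all 3 arrays (42.9%) and 7 on none. This share lay near the background of 34.2% of all rows and 47.4% of protein-coding rows. FABP7, a lipid carrier, had intensities of 4354, 2819 and 3076 (11.71 ± 0.49, SD, n = 3) and TNC, a matrix protein, 1396, 2930 and 2986 (11.13 ± 0.52). PTPRZ1 and SLC1A3, a receptor phosphatase and a glutamate transporter, had 541, 296 and 382 and 312, 169 and 175. The gliogenic factors NFIA, NFIB and NFIX and the astrocyte genes GFAP, S100B, AQP4 and SLC1A2 were detected on no array.

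Cell cycle genes were detected in 23 of 28 cases (82.1%, against 34.2% of all rows and 47.4% of protein-coding rows). CDC20, an activator of the anaphase-promoting complex, had intensities of 20473, 26210 and 25468 (14.60 ± 0.13, SD, n = 3), and MCM3, a subunit of the replicative helicase, 17671, 20473 and 20494 (14.28 ± 0.05). CCND1, the G1 cyclin, had 11631, 15783 and 14024 (13.75 ± 0.13), and TYMS had 11940, 14016 and 14856 (13.74 ± 0.09). BUB1 and MCM6 varied most, at 1240, 279 and 484 and at 6015, 1374 and 1656, with ranges of 2.86 and 2.51 and the highest value on control 1. Of the 23 detected members 9 were highest on control 1 and 12 lowest. MCM6 sits in the same helicase complex as MCM3, whose range was 0.10. MKI67, a widely used proliferation marker, was detected on no array at 150, 139 and 130. PCNA missed the rule in a row of several probes, with 2687, 2573 and 2396. CDKN2A, an inhibitor of G1 progression, was detected on no array.

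Proneural factors, which start neuron formation, were detected on all 3 arrays in 6 of 20 cases. This share of 30.0% was near the 34.2% of all rows and below the 47.4% of protein-coding rows. HES6 had intensities of 2585, 4140 and 4387 (11.80 ± 0.28, SD, n = 3), NEUROG2 had 507, 451 and 499 (8.62 ± 0.16), INSM1 had 444, 599 and 511 (8.71 ± 0.22) and MYT1 had 356, 607 and 563 (8.62 ± 0.52). ATOH7, of retinal ganglion cell precursors, lay at 155 to 188. Of 22 neuronal genes 11 were detected (50.0%), close to the 47.4% of protein-coding rows. TUBB3, a neuronal tubulin that progenitors can also carry, had 10892, 16429 and 16642 (13.84 ± 0.25), and CNTN2, a cell adhesion protein, 1442, 2297 and 1911 (10.80 ± 0.23). STMN2, a growth cone protein, had 635, 250 and 283 (7.96 ± 1.06), and MAP2, INA, NEFM and GAP43 had intensities of 224 to 589. STMN2, MAP2, INA, NEFM and GAP43 were all highest on control 1. Of the 11 detected members 6 were highest there and 4 lowest, namely TUBB3, CNTN2, STMN4 and L1CAM. NEFL, a neurofilament subunit, varied little at 251, 246 and 251. SYT1, a synaptic vesicle protein, was detected on control 1 alone at 164, 116 and 107. SYP, SCG2 and RBFOX3 (listed as HRNBP3) were detected on no array, and SNAP25 missed the rule in a row of several probes, with 168, 175 and 197.

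**Figure D2:**
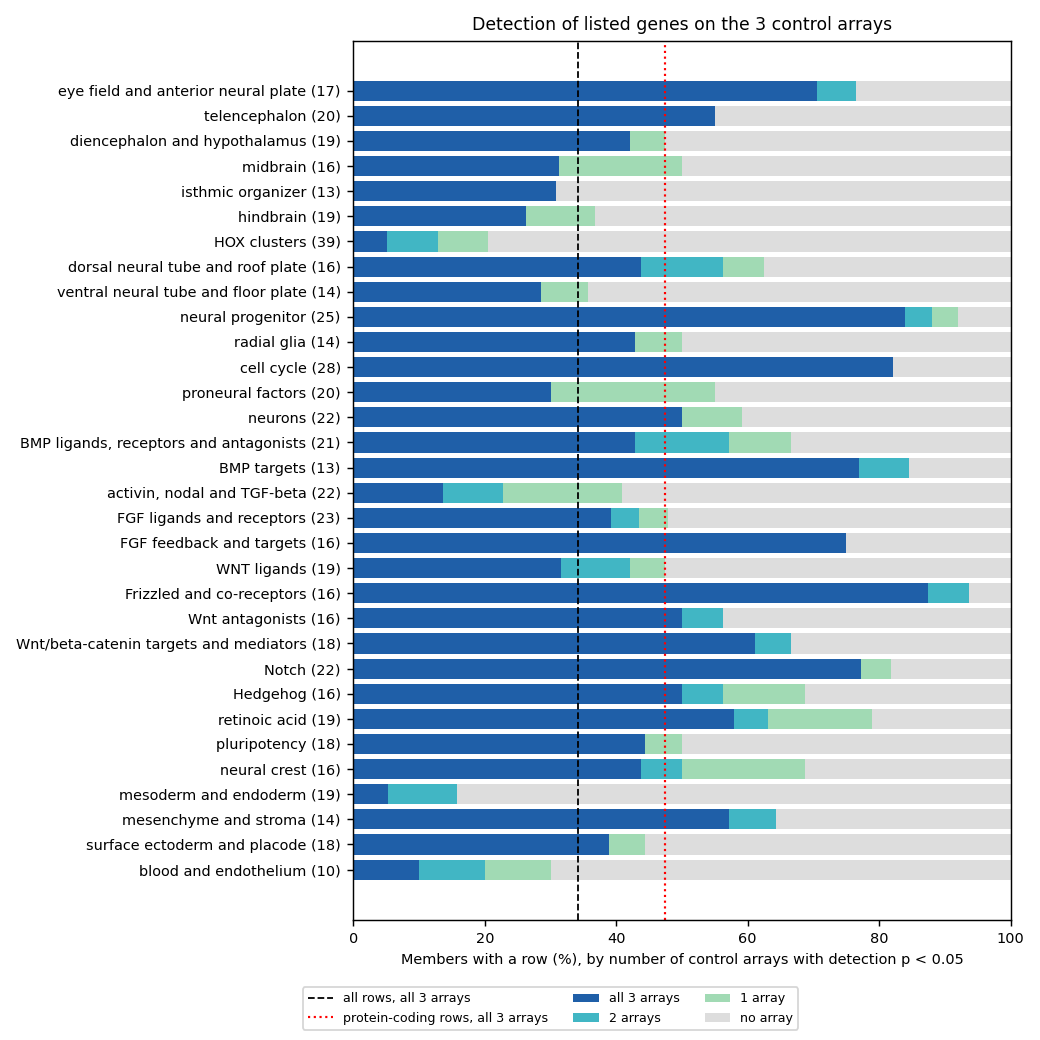
Share of listed genes with a row that were detected on all 3, on 2, on 1 or on no control array, for 32 gene lists with the number of rows in parentheses. The dashed line marks 34.2%, the share of all rows detected on all 3 arrays, and the dotted line 47.4%, the share of protein-coding rows. Neural progenitor, cell cycle and Frizzled genes exceed 80%, and HOX genes lie at 5.13%.

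Notch signalling keeps neural progenitors dividing: ligands on a cell activate Notch receptors on its neighbour, whose cleaved tail joins the DNA-binding protein RBPJ to switch on HES and HEY repressors. Of 22 Notch genes 17 were detected on all 3 arrays (77.3%, against 34.2% of all rows and 47.4% of protein-coding rows). Of these 17, 13 were lowest on control 1, against 56.0% of all detected rows. The ligand gene DLL1 had intensities of 12965, 22261 and 21344 (14.20 ± 0.36, SD, n = 3) and JAG1 had 2320, 3321 and 2063 (11.27 ± 0.31). Among receptors NOTCH1 had 3008, 5689 and 5724 (12.17 ± 0.39) and NOTCH3 had 3678, 6628 and 6446 (12.40 ± 0.33), while NOTCH2 was detected on no array. LFNG, an enzyme that adds sugars to Notch, had 4120, 8188 and 7481 (12.62 ± 0.39). Of the targets, HES5 had 35409, 49713 and 51206 (15.49 ± 0.25), above the 99.6th percentile of each array, and HES4 had 7928, 20181 and 18889 (13.87 ± 0.62). HES1 had 1006, 1418 and 1452 (10.22 ± 0.21). The row of RBPJ was at background, at 123, 122 and 105. DLL4 was detected on no array, and JAG2 missed the rule on all 3 in a row of several probes.

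The proximal promoters of HES5, HES1 and HES4 are shown because these repressors are direct outputs of Notch and carry the RBPJ motif. The sequences are RefSeq's, on GRCh38.p14, and run 5′ to 3′ on the gene's strand from 250 bases before the start site to 50 bases after its first base. Capitals mark TGGGAA, the core RBPJ motif, or its other-strand form TTCCCA. They lie at chr1:2530214-2530513 on the minus strand, chr3:194135898-194136197 on the plus strand and chr1:1000048-1000347 on the minus strand.
HES5: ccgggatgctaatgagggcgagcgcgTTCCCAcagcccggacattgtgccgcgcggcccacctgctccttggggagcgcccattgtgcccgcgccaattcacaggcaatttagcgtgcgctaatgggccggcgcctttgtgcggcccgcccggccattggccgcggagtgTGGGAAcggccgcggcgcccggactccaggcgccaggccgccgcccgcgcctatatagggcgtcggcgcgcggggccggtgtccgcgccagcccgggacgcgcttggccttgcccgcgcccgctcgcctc
HES1: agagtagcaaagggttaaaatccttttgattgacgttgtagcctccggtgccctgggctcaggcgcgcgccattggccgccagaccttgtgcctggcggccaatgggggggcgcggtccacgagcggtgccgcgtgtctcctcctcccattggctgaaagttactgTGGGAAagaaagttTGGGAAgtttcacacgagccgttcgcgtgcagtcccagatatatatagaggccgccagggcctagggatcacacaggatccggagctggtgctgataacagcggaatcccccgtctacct
HES4: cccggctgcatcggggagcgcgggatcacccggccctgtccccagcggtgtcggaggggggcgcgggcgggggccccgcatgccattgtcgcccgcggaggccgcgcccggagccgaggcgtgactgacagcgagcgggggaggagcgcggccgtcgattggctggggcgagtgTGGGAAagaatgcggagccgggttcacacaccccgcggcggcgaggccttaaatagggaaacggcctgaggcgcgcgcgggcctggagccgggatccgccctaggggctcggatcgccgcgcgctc
The motif began at -84 and -70 from the start site in HES1, at -224 and -80 in HES5 and at -76 in HES4. It was found on either strand in 5 of the 6 promoters of the listed HES and HEY genes that had an entry, HES6 being the exception, and in 24.0% of all 35116 promoters. A match of these letters is a description and not a shown binding site.

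FGF signalling acts through receptor tyrosine kinases and the ERK pathway, which induces its own inhibitors, the Sprouty, Spred and DUSP genes. Of 16 feedback genes and targets 12 were detected on all 3 arrays (75.0%, against 34.2% of all rows and 47.4% of protein-coding rows). Of the 12, 10 were lowest on control 1, against 56.0% of all detected rows. SPRY1 had intensities of 2760, 3759 and 3235 (11.63 ± 0.09, SD, n = 3) and SPRY2 2885, 3194 and 3785 (11.66 ± 0.16). The ERK phosphatase gene DUSP6 had 821, 983 and 1022 (9.74 ± 0.12), and the ETS factor gene ETV5 had 1063, 1853 and 1812 (10.50 ± 0.37). The immediate early gene EGR1 had 931, 1803 and 2214 (10.52 ± 0.61). DUSP4, ETV1, SPRY3 and SPRED3 were detected on no array. Of 23 ligand and receptor genes 9 were detected, and 10 on controls 2 and 3 alone. The share of 39.1% on all 3 arrays lay near the 34.2% of all rows and below the 47.4% of protein-coding rows. FGFR3 had 2458, 4651 and 4996 (11.89 ± 0.44), and FGFRL1, a receptor without a kinase domain, 1165, 2075 and 2105 (10.68 ± 0.41). FGFR2 had 187 to 221, and FGFR1 was detected on 2 arrays at 141, 213 and 212. Besides FGF8, the ligand genes FGF9 (369, 230 and 231) and FGF2 (266, 184 and 183) were detected, both highest on control 1, and FGF11 had 343, 382 and 415. Of the 9 detected ligand and receptor genes 7 were lowest on control 1.

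Wnt proteins bind Frizzled receptors and stabilise beta-catenin, which acts with TCF and LEF factors. The receptor side was widely detected, 14 of 16 genes and 15 on controls 2 and 3 alone. The 87.5% on all 3 arrays stood against 34.2% of all rows and 47.4% of protein-coding rows. FZD2 had intensities of 5242, 9607 and 9577 (12.95 ± 0.35, SD, n = 3), FZD7 had 2551, 3760 and 4147 (11.72 ± 0.25), and FZD5, a receptor of the eye field, had 1314, 2016 and 2435 (10.81 ± 0.38). FZD3 stood out with 478, 189 and 215, a range of 2.29. The secreted inhibitors SFRP1 and SFRP2 had 21484, 34263 and 24905 (14.73 ± 0.26) and 18945, 25427 and 26881 (14.58 ± 0.20), both above the 99.0th percentile of each array. FRZB, of the same family, had 8685, 9884 and 9910 (13.23 ± 0.04), and SHISA2, which retains Frizzled and FGF receptors inside the cell, 7010, 10246 and 9991 (13.15 ± 0.15). In all, 8 of 16 antagonist genes were detected (50.0%, near the 47.4% of protein-coding rows), and WIF1, CER1, DKK2, DKK4 and SFRP5 were detected on no array. DKK1 missed the rule in a row of several probes, with 443, 607 and 267.

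Of 19 WNT ligand genes 6 were detected on all 3 arrays, and 7 on controls 2 and 3 alone. The 31.6% on all 3 was near the 34.2% of all rows and below the 47.4% of protein-coding rows. WNT2B had intensities of 1821, 1834 and 1648 (10.73 ± 0.17, SD, n = 3) and WNT8B, of the dorsal forebrain, 701, 827 and 699 (9.36 ± 0.11). WNT3A had 1616, 894 and 644 (9.81 ± 0.84) and WNT4 had 1085, 597 and 481 (9.22 ± 0.78), and both, like WNT1, were highest on control 1. WNT10B was detected at 272, 281 and 299. WNT5B missed the rule in a row of several probes, with 1905, 2957 and 2955 and detection p-values of 0.404, 0.406 and 0.464. Of 18 targets and mediators of beta-catenin 11 were detected (61.1%, against 34.2% of all rows and 47.4% of protein-coding rows). AXIN2, a feedback inhibitor and target, had 5545, 6340 and 5113 (12.47 ± 0.19), and ZNRF3, which removes Frizzled from the membrane, had 911, 1267 and 1167 (10.00 ± 0.17). LEF1 had 857, 738 and 440 (9.15 ± 0.63) and TCF7L1, a repressor that favours anterior fate, 472, 747 and 752 (9.09 ± 0.43). CTNNB1 had 386, 277 and 208, with the widest range, 1.44, among the members detected on all 3 arrays. LGR4, an R-spondin receptor, was detected on 2 arrays at 268, 140 and 165, with a range of 2.05. LGR5, LGR6, RNF43, TCF7, APC and GSK3A were detected on no array.

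BMP and activin signalling were blocked during the first 4 days of the protocol, and the arrays sampled cells after further days without a stated inhibitor. Of 13 BMP target genes 10 were detected on all 3 arrays (76.9%, against 34.2% of all rows and 47.4% of protein-coding rows). ID3, an inhibitor of bHLH factors, had intensities of 6023, 7638 and 6144 (12.70 ± 0.15, SD, n = 3). ID1 had 1038, 942 and 835 (9.75 ± 0.26), ID2 had 1455, 812 and 704 (9.77 ± 0.72) and ID4 had 668, 1097 and 1138 (9.73 ± 0.41), so ID2 and ID4 were ordered oppositely over the arrays. The feedback inhibitors BAMBI, SMAD6 and SMAD7 had log2 levels of 10.01 ± 0.19, 9.27 ± 0.35 and 7.34 ± 0.43. GATA2 and GATA3, targets in surface ectoderm, were detected on no array. Of 21 ligands, receptors and antagonists 9 were detected (42.9%, near the 47.4% of protein-coding rows), and 10 on controls 2 and 3 alone. They included BMP7 at 2291, 2506 and 2730 (11.26 ± 0.10), BMP2 at 741, 690 and 540 (9.15 ± 0.31) and the antagonist gene FST at 1265, 1801 and 1345 (10.43 ± 0.20). CHRD and NOG, BMP antagonists that promote neural induction, were detected on 2 arrays each.

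The activin, nodal and TGF-beta list was the signalling list with the smallest detected share, 3 of 22 genes. This 13.6% stood against 34.2% of all rows and 47.4% of protein-coding rows. A further 6 genes were detected on 1 or 2 arrays and 13 on none. SMAD3, an effector, had intensities of 1094, 2092 and 1311 (10.41 ± 0.41, SD, n = 3), and ACVR1B, the type I activin receptor, had 544, 874 and 802 (9.31 ± 0.37). LEFTY2, a target and inhibitor of nodal, had 174, 228 and 240 (6.75 ± 0.50). NODAL, LEFTY1, GDF3, GDF1, INHBA, TGFB1, TGFB2, TGFB3, TGFBR1, SMAD2 and FOXH1 were among those detected on no array. The count depended on the arrays and the threshold: it was 5 without control 3 and 1 at a detection p-value below 0.01.

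**Figure D3:**
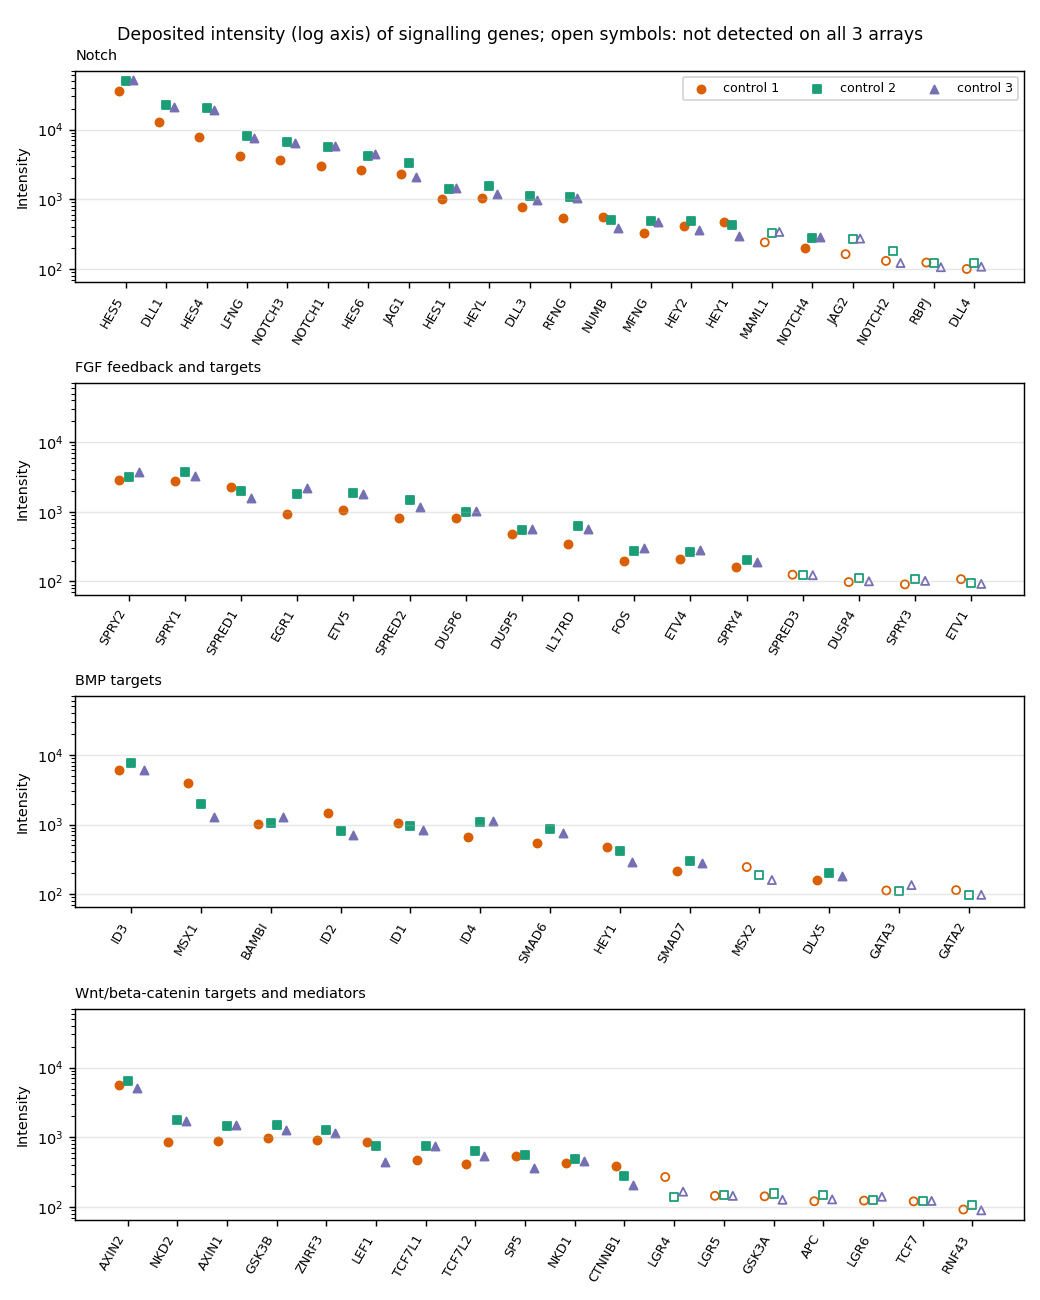
Deposited intensity on a log axis for members of the Notch, FGF feedback, BMP target and beta-catenin lists, ordered by mean log2 level. Each control array has its own symbol. Filled symbols mark genes detected on all 3 arrays. HES5 reaches 51206, and detected Notch and FGF feedback genes are mostly lowest on control 1, as are 56.0% of all detected rows.

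Hedgehog signalling ventralises the neural tube through SMO and the GLI factors. Of 16 genes 8 were detected on all 3 arrays (50.0%, near the 47.4% of protein-coding rows). GAS1, a co-receptor, had intensities of 6539, 8213 and 9023 (12.96 ± 0.11, SD, n = 3) and SMO had 3763, 5149 and 5613 (12.22 ± 0.16). GLI3, the main repressor form, had 1072, 2152 and 1255 (10.40 ± 0.46) and GLI2 had 868, 1461 and 1634 (10.21 ± 0.44). PTCH1, a receptor and target, had 220, 398 and 300 (7.60 ± 0.66). GLI1, the target most used as a readout, was detected on 1 array, and SHH, IHH, HHIP and CDON on none.

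Retinoic acid is made from vitamin A, which the B27 supplement of this protocol lacks. Of 19 genes of its metabolism and response 11 were detected on all 3 arrays (57.9%, against 47.4% of protein-coding rows). The binding proteins CRABP2 and CRABP1 had intensities of 10761, 11619 and 11441 (13.47 ± 0.06, SD, n = 3) and 6975, 13126 and 13156 (13.40 ± 0.38), and the receptor gene RXRA had 4340, 7763 and 7852 (12.66 ± 0.35). RDH10, which makes retinal from retinol, had 447, 721 and 773 (9.05 ± 0.50), and ALDH1A2, which makes retinoic acid, 246, 380 and 295 (7.65 ± 0.46). The degrading enzyme gene CYP26A1 and the synthesis gene ALDH1A1 were detected on 1 array, RARB, a direct target, on 2, and CYP26C1, RARG, RXRG and RBP4 on none. The paralogs CYP26B1 and ALDH1A3 were detected on all 3, at 212, 262 and 233 and at 223, 203 and 181.

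Pluripotency was checked because the cells came from embryonic stem cells. POU5F1 and NANOG, its core factors, were detected on no array, with intensities of 139, 142 and 139 and of 113, 117 and 111. DPPA2, DPPA5, PRDM14, GDF3, KLF17, UTF1 and TERT were not detected either, and TDGF1 was detected on 1 array. Of 18 members with a row 8 were detected on all 3 arrays (44.4%, near the 47.4% of protein-coding rows). They included SALL4 at 6064, 12344 and 8650 (13.10 ± 0.38, SD, n = 3), DNMT3B, a DNA methyltransferase, at 1884, 3095 and 3037 (11.31 ± 0.28) and DPPA4 at 2005, 2446 and 2053 (11.04 ± 0.10), beside LIN28A. ZFP42 and KLF4 had 264 to 363 and 190 to 274. L1TD1 and USP44 had 409, 214 and 219 and 433, 223 and 251, both highest on control 1, where 5 of the 8 detected members were lowest.

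Markers of other cell types were detected in part. Of 16 neural crest genes 7 were detected on all 3 arrays (43.8%, near the background shares), and 8 on controls 2 and 3 alone. SOX8 and SOX9, which neural progenitors also carry, had log2 levels of 11.10 ± 0.22 and 10.97 ± 0.30 (SD, n = 3). SOX10, the defining crest and glial factor, had intensities of 1302, 641 and 369 (9.20 ± 1.15), and SNAI2 had 399, 229 and 188 (7.20 ± 0.95), both highest on control 1. Of the 7 detected members 3 were highest on control 1 and 3 lowest, SOX8 and SOX9 being among the lowest. FOXD3, TFAP2B, SNAI1, PAX3 and SOX5 were detected on no array. Of 19 genes of mesoderm and endoderm only APOA1, at 165 to 198, was detected on all 3 arrays. This was 5.26%, against 34.2% of all rows and 47.4% of protein-coding rows. The count was 3 without control 1, with MESP1 and AFP, and 0 at a detection p-value below 0.01. T, MIXL1, SOX17, GATA4, GATA6 and FOXA2 were detected on none. Of 14 mesenchyme genes 8 were detected (57.1%, against 47.4% of protein-coding rows). They were the contractile genes ACTA2 (7995, 15400 and 14595) and TAGLN (2790, 5670 and 6210), the collagen genes COL5A1 (2075, 3642 and 3776), COL1A2 (560, 766 and 537), COL1A1 (198 to 285) and COL3A1 (156 to 183), the surface protein gene THY1 (2092, 3484 and 3470) and the receptor gene PDGFRB (491, 786 and 747). COL6A3 was detected on 2 arrays, and PDGFRA, PRRX1, DCN, LUM and POSTN on none. In surface ectoderm and placode 7 of 18 were detected (38.9%, near the background shares), with KRT19 at 2524, 4554 and 3192 and KRT8 at 1809, 2935 and 2688. TFAP2C had 577, 491 and 310, EPCAM, an epithelial adhesion protein, 325, 435 and 367, and SIX4 353, 283 and 206, while DLX3 and KRT18 had 193 to 217 and 150 to 171. CDH1 was detected on 1 array, and TP63, KRT5, KRT14 and GRHL2 on none. In blood and endothelium VWF alone of 10 genes was detected, at 482, 735 and 609, and 2 genes were detected without control 2. The share on all 3 arrays was 10.0%, against the same 34.2% and 47.4%. The part of such cells in the levels above was not tested, and in bulk samples fewer cells of a type and less RNA per cell cannot be told apart.

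Over the whole table, the 12 named rows with the highest mean level held HES5, described above. The others were TUBB2B, a tubulin of developing brain, at 53865, 61253 and 59704 (15.85 ± 0.08, SD, n = 3), ACTB, ENO1, MYL6, OAZ1, TUBA1A, TUBA1B, ANXA2P2, CALM3, EEF2 and PHGDH, the first enzyme of serine synthesis, at 37504, 51324 and 46773 (15.49 ± 0.17). ANXA2P2 is listed as a pseudogene, and near-identical copies cannot be told apart by such a row.

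The 12 rows with the widest range over the control arrays, among those with a log2 level of at least 8 on their lowest array, were all highest on control 1. DDX5, an RNA helicase, had intensities of 11925, 1344 and 2084, a range of 3.47 on the log2 scale. CCT2, a chaperonin subunit, had 5160, 730 and 1243, and RRM1, a subunit of ribonucleotide reductase, 9100, 1549 and 2221. Others were PLRG1, MAPK6, XRCC5, IDH1, PPT1, GLO1, TOMM20 and LOC728877, with ranges of 2.71 to 3.31. Over all detected rows control 1 was the highest array in 32.5% and the lowest in 56.0%, with a median difference of -0.18 from the mean of controls 2 and 3. Over the lists the median difference ran from -0.67 for ventral genes to 1.21 for dorsal genes. Next to the dorsal list came radial glia and WNT ligands at 0.91 and 0.56, and next to the ventral list mesenchyme, the activin list and FGF feedback at -0.64, -0.63 and -0.58. The cause of these differences was not tested.

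**Figure D4:**
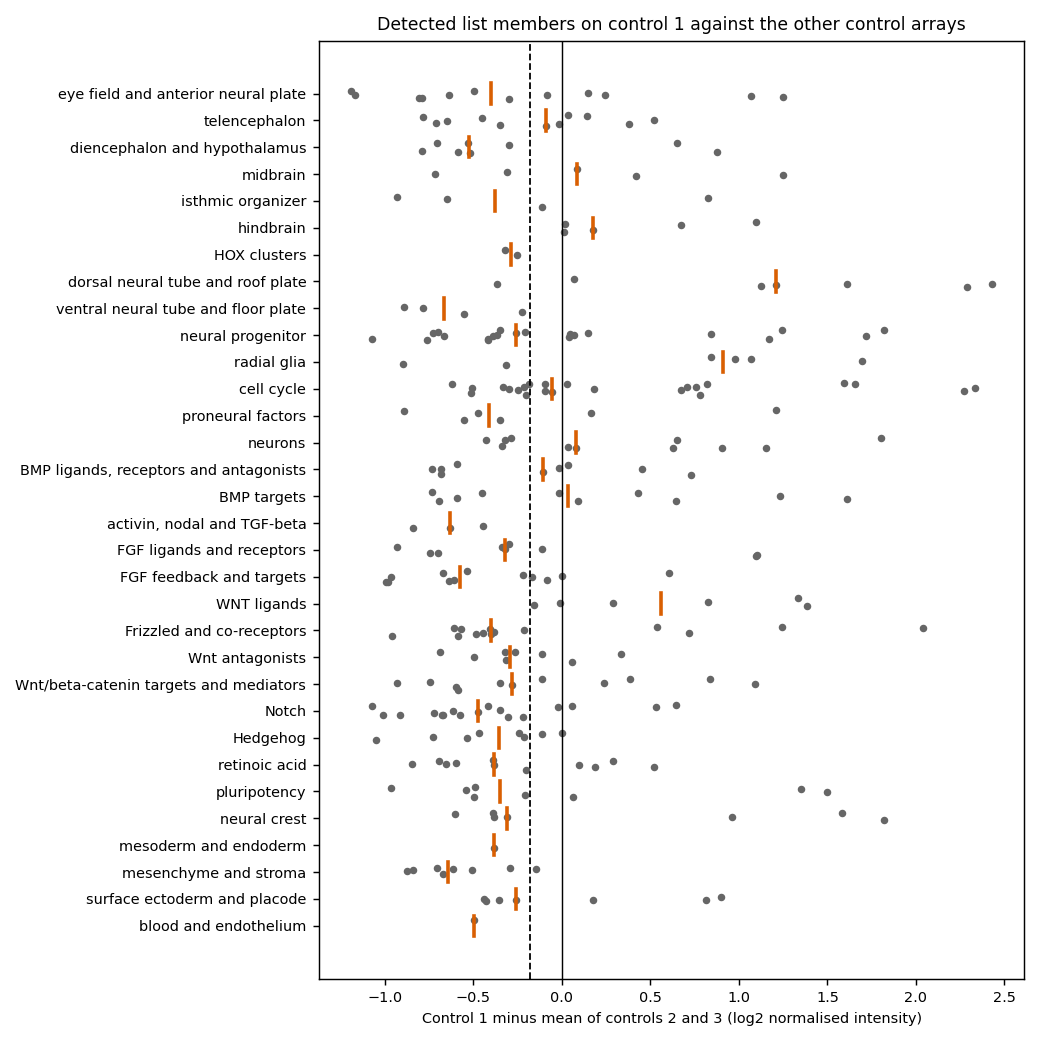
Log2 level on control 1 minus the mean of controls 2 and 3 for each listed gene detected on all 3 arrays (points), by list, with the list's median as a bar. The dashed line marks -0.18, the median over all 11866 detected rows. Dorsal neural tube genes reach 2.43, and most Notch and Hedgehog genes lie below 0.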

How the data were processed

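Biotin-labelled cRNA of 3 control samples was hybridised to Illumina bead arrays, and the submitters' processing notes list GenomeStudio 2011.1. The deposited table gives raw linear intensity for every row on every array, without normalisation or background subtraction. A deposited detection p-value, per the file headers, accompanies each intensity. Its spacing in rows of 1 probe corresponds to 770 negative controls per array, which the headers do not state. Probes of 1 gene had been merged into a row by the authors: by the spacing of the deposited p-values 27322 of 34692 rows were taken to hold 1 probe and 7370 several. A merged row with the lowest possible p-value on every array would also be taken to hold 1 probe. The number of probes is therefore uncertain for bright rows. The authors' processed table holds log2 intensities of 34685 rows, quantile normalised without background correction (largest difference from a recomputation 0.00754). The build and annotation of the array are not given in the sources used here.

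Background was removed by limma's normexp fit (limma 3.58.1, R 4.3.3, background from rows of 1 probe, offset 16), quantile normalised over all 6 arrays and put on the log2 scale, a step tested on simulated data. Means and SDs are over 3 control arrays, and their number limits the precision. No test between groups was made and no p-value computed beyond the authors'. Rows keep the array's gene names, and 547 of 549 listed genes had a row, 3 under an older symbol. Members and lists were chosen with earlier results of these data known.

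Named were all labelled markers, all regional and pluripotency genes (undetected HOX genes as a count), up to 8 brightest and 2 widest detected members of the other lists, and 12 rows by level and 12 by range over the table. A ribosomal, mitochondrial or Y-linked row was not named there. Members outside this rule are named only as detected or not detected or where their values are single exceptions, and were then chosen after the values were seen. Alternatives were a detection p-value below 0.01, Benjamini-Hochberg adjustment, rows of 1 probe only, rows of several probes counted also by signal, each array left out, and other corrections and scalings of levels. Some listed genes are not reported here by name, and counts of lists include them.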

Additional observations from a re-analysis of the deposited data

How the results depend on the processing

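No paired analysis was possible because the control cells are 1 group and no test between groups was made. The count of detected rows and of 33 lists changed by less than 1.5 times under most alternatives, and counting rows of several probes also by signal moved none beyond that. At a detection p-value below 0.01 the isthmic organizer, HOX, activin, and mesoderm and endoderm counts were 2, 0, 1 and 0. With Benjamini-Hochberg adjusted detection p-values, the isthmic organizer, HOX, and mesoderm and endoderm counts were 2, 0 and 0. With rows of 1 probe only, which removes members, neurons gave 7, FGF feedback 7, Wnt antagonists 5 and pluripotency 5. Leaving out 1 array in turn gave 2 to 4 HOX genes, 3 to 5 activin, nodal and TGF-beta genes, 1 to 3 mesoderm and endoderm genes and 1 to 2 blood and endothelium genes, and 12437 to 12678 detected rows. The 4 HOX and 5 activin genes came without control 3, the 3 mesoderm and endoderm genes without control 1 and the 2 blood and endothelium genes without control 2. Mean levels of 210 named genes stayed within 1 SD in 144 cases without background correction, in 146 with the authors' processed table, in 63 with the background from all rows, in 208 with quantiles over the control arrays only and in 209 with median scaling. The median shift of detected rows was 0.317 without background correction, 0.310 with the authors' processed table and 0.126 with the background from all rows. Signal close to background limits dim rows, whose order is not known.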

Other observations

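Outside the lists of the report, families were counted by symbol in the control cells, after their values were seen. Of 19 SOX genes 10 were detected on all 3 arrays (52.6%, near the 47.4% of protein-coding rows). Among those not yet described, SOX13 had intensities of 2526, 4154 and 3741 (log2 11.71 ± 0.23, SD, n = 3), SOX12 had 339, 715 and 692, and SOX15 had 337, 624 and 495, while SOX5, SOX6, SOX7, SOX14, SOX17 and SOX30 were detected on none. All 4 SALL genes, zinc finger factors of early development, were detected, with SALL2 at 19370, 27663 and 25004 (14.59 ± 0.18) and SALL3 at 849, 1811 and 1591 (10.29 ± 0.53). TEAD2, a partner of YAP in embryonic neural tissue, had 33752, 43040 and 41974 (15.29 ± 0.14). Of 49 forkhead genes 17 were detected (34.7%), against 34.2% of all rows and 47.4% of protein-coding rows. Among them the proliferation factor gene FOXM1 had 2121, 3386 and 3358. Of 8 LHX genes, 2 were detected, LHX2 and LHX5.

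Of 496 rows named for a miRNA gene with a RefSeq entry, 23 were detected on all 3 control arrays and 440 on none. The 4.64% on all 3 stood against 34.2% of all rows. A row of a miRNA gene reads longer RNA that holds the gene's sequence and not the mature miRNA. Mature sequences from RefSeq (GRCh38.p14) are shown for 3 detected genes with known neural or ocular roles, chosen after the values were seen, with the seed in capitals.
miR-92a-3p: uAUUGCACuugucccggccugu
miR-125b-5p: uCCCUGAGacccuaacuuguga
miR-204-5p: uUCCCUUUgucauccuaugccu
The row of MIR92A2 had intensities of 189, 359 and 373, that of MIR125B2 had 276, 324 and 296 and that of MIR204 had 164, 197 and 171. MIR92A2 was lowest on control 1, and MIR204 lay near background on all 3 arrays. The 3 seeds differ from each other.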
